A study of Mus musculus with 6 samples.

Results

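The genes described here encode the protein subunits of the oxidative phosphorylation system, that is respiratory complexes I to IV and the ATP synthase (complex V). They were taken as the rows of the deposited gene table whose symbols begin with Nduf followed by a, b, c, s or v and a digit, Uqcr, Cox and a digit from 4 to 8, Atp5, mt-Nd, mt-Co, mt-Cytb or mt-Atp, plus Sdha to Sdhd. Symbols ending in -ps and digits (8 rows) were left out. This gave 112 of the 57180 rows, 99 of them nuclear and 13 of the mitochondrial genome. Of the nuclear rows, 6 still carried a pseudogene symbol ending in -ps and reached at most 2.04 counts in any library. In all, 10 rows were at 0 in every library, 7 of them without a pseudogene symbol, among them Cox7b2 and Cox8c. The 3 pseudogene rows with counts did not pass the filter on low counts. The remaining 99 members were tested, 86 nuclear and 13 mitochondrial. The nuclear ones include the row Ndufb4c, which GENCODE M21 annotates as a processed pseudogene. The rule does not take in Cyc1 of complex III or Ndufab1 of complex I, which are counted below with the mobile carriers.

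The samples were lungs of mice exposed to cigarette smoke in both groups. The wild-type group (genotype WT, 3 libraries, WT1 to WT3) was compared with the FTO-overexpressing group (genotype FTO OE, 3 libraries, OE1 to OE3). FTO is an RNA demethylase that removes the methyl mark of N6-methyladenosine. The labels do not give how the overexpression was made or in which cells, nor the strain, age or sex of the animals, the length of exposure, or whether each library came from a separate mouse, so p-values measure the spread between these libraries, which may be technical. As no group without smoke was analysed here, the comparison concerns genotype under smoke and not smoke itself.

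In the inner mitochondrial membrane, complexes I and II pass electrons from NADH and succinate to ubiquinone, complex III passes them on to cytochrome c, and complex IV transfers them to oxygen. Complexes I, III and IV pump protons, and complex V uses the returning protons to make ATP. Most subunits are encoded in the nucleus, made in the cytosol and imported, whereas a small core set is encoded by the mitochondrial DNA, which is transcribed as long polycistronic RNAs that are then cut into messenger, ribosomal and transfer RNAs. In the lung, alveolar type 2 cells are rich in mitochondria, since making and recycling surfactant uses much energy.

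Library depth was 16731850 to 21444907 counts. Levels are given as library-scaled CPM, that is counts per 1000000 counts of that library, as mean ± SD over the 3 libraries of a group. Fold changes and p-values come from edgeR's quasi-likelihood test on the whole table, with TMM scaling and Benjamini-Hochberg adjustment over all 16989 genes tested. Fto was at 64.5, 68.6 and 69.1 CPM in the wild-type libraries and at 646, 683 and 749 CPM in the overexpressing ones, a 10.1-fold difference (95% interval 8.66 to 11.7). Of all genes tested, 16 had an adjusted p under 0.05, 13 of them higher and 3 lower in the overexpressing group.

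None of the 99 tested members passed the threshold, beside 0.0942% of all genes tested. By direction, 0.0765% of all genes were called higher and 0.0177% lower. At an unadjusted p under 0.05, edgeR gave 5 members, all with higher values in the overexpressing group. Of all genes, 9.44% had such a p, 5.77% higher and 3.67% lower. They were Ndufa10, Cox5b, Ndufa9, Uqcrc1 and Uqcrfs1, and the lowest adjusted p of any member was 0.248, for Ndufa10. DESeq2 and limma-voom also called 0 members, with 4 and 5 members at an unadjusted p under 0.05. Of the same 16989 genes, DESeq2 called 424 and had 1506 at such a p. In limma-voom 5 genes were called and 1573 had such a p. The fitted log2 fold change was above 0 for 70 of 86 nuclear members, with a median of 0.08, and for 0 of 13 mitochondrial members, with a median of -0.16. Without WT1 the mitochondrial median was 0.09, on the same side of 0 as the nuclear median of 0.14. Over all genes tested, 51.5% were above 0, the median was 0.01 and the quartiles were -0.12 and 0.14. The nuclear median thus lay inside the quartiles of all genes and the mitochondrial median below them, and no test was made of the members as a list.

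**Figure D1:**
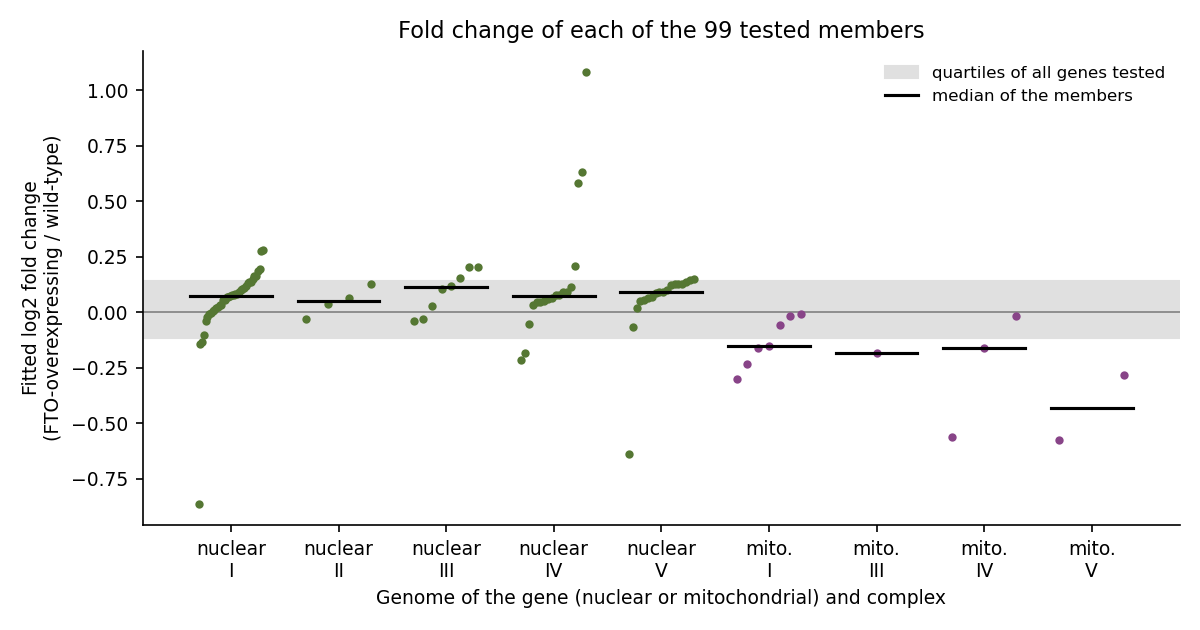
Fitted log2 fold change (overexpressing over wild-type, vertical axis) of each of the 99 tested members, arranged by genome and complex; each point is 1 gene, black lines are medians and the grey band spans the quartiles of all genes tested (-0.12 to 0.14). Most nuclear points sit just above 0 and inside the band, and all 13 mitochondrial points sit below 0.

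The transcripts of the nuclear subunits together made up 5590, 5233 and 5384 CPM in WT1, WT2 and WT3. In OE1, OE2 and OE3 they made up 5787, 5862 and 6019 CPM. The groups did not overlap on this scale, with means of 5402 ± 179 and 5889 ± 119 CPM. On the TMM scale, which the fit uses, the sums were 5734, 5324 and 5337 against 5964, 5567 and 5945 CPM, and OE2 then lay below WT1, so the groups overlapped. Member by member, all 3 overexpressing libraries lay above all 3 wild-type libraries for 31 of 86 nuclear members by library-scaled CPM, where 10.2% of all genes did. On the TMM scale this held for 19 of 86, beside 7.96% of all genes. The opposite order was seen for 1 member by library-scaled CPM (Ndufa5, beside 4.77% of all genes) and for 0 members on the TMM scale (6.9% of all genes).

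The nuclear median depended on single libraries, being 0.14 without WT1, with 80 of 86 members above 0, and 0.04 without OE1, with 55 of 86 above 0. Transcript levels in lung RNA also move with its cell makeup, and fewer cells of a type and less RNA per cell cannot be told apart in such samples. Of 12 T cell markers, 12 were above 0 (median log2 fold change 1.76, 3 called), and their summed level was 108 to 141 CPM in wild-type and 313 to 671 CPM in overexpressing libraries. Of 12 cell cycle genes, 12 were above 0 (median 1.45, 0 called and 12 at an unadjusted p under 0.05), with sums of 167 to 239 against 309 to 514 CPM. Alveolar type 2 cell markers were above 0 for 0 of 10 (median -0.26, 0 called, 5 at an unadjusted p under 0.05, all lower), with sums of 21800 to 24101 against 19351 to 22706 CPM. Alveolar macrophage markers were above 0 for 2 of 12 (median -0.27, 0 called), with sums of 2605 to 3550 against 2071 to 2783 CPM. Their part in the values of the subunits was not tested.

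**Figure D2:**
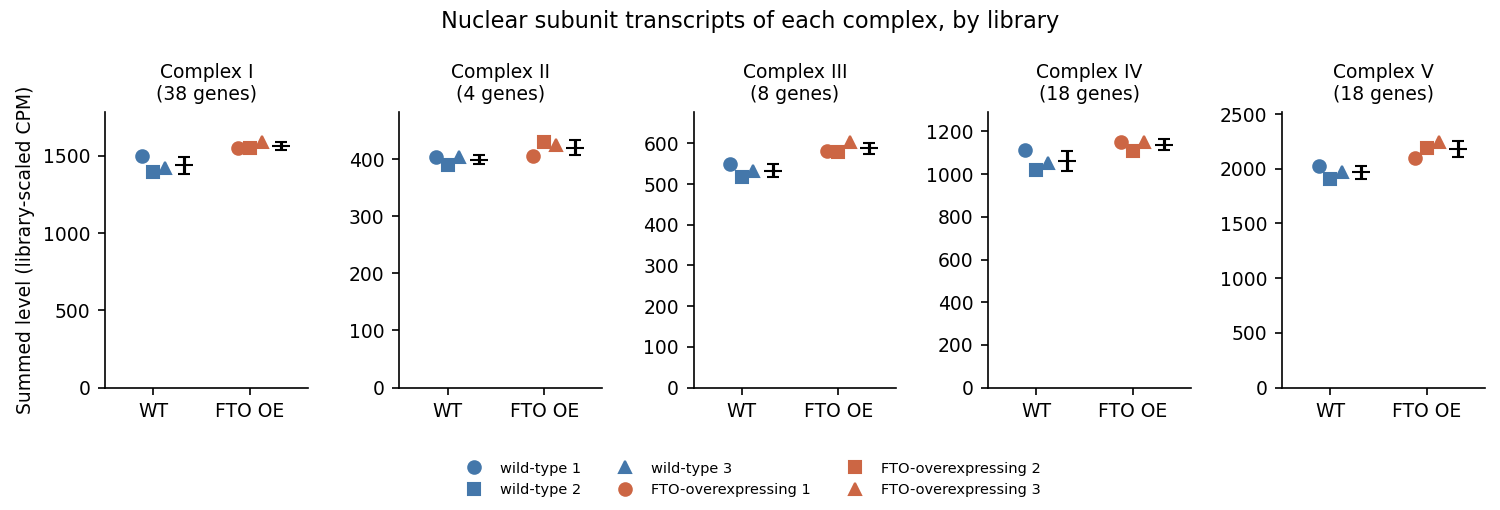
Summed level of the nuclear subunits of each complex (vertical axes, library-scaled CPM, starting at 0) in the wild-type (WT) and FTO-overexpressing (FTO OE) libraries; each point is 1 library and black marks are means with SD. The groups lie apart for complexes I, II, III and V, narrowly for complex II, and overlap for complex IV (wild-type up to 1111, overexpressing from 1109 CPM).

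Complex I takes electrons from NADH. Its 38 nuclear members tested had a median log2 fold change of 0.07, 30 of them above 0, and summed to 1440 ± 54.3 CPM in the wild-type group and 1564 ± 24.1 CPM in the other. Ndufa10, an accessory subunit of the membrane arm, was at 48.0, 47.8 and 52.7 CPM in WT1 to WT3 and at 55.4, 64.6 and 64.5 CPM in OE1 to OE3. Its groups did not overlap, and the fitted fold was 1.22 (95% interval 1.08 to 1.37, adjusted p = 0.248). Ndufa9, which binds at the junction of the arms, was at 55.6, 55.7 and 53.4 CPM against 62.3, 65.0 and 65.7 CPM. These groups did not overlap either, with a fold of 1.15 (1.02 to 1.28, adjusted p = 0.423). The catalytic core in the matrix arm showed smaller differences. Ndufv1, which carries the flavin and the NADH site, was at 57.9 ± 2.01 and 62.4 ± 1.25 CPM. Ndufs1, the large iron-sulphur subunit, was at 62.6, 61.7 and 74.1 CPM against 68.3, 91.0 and 71.9 CPM, so WT3 lay within the overexpressing range. Adjusted p-values of Ndufv1 and Ndufs1 in edgeR were 0.815 and 0.682.

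A few complex I rows had low or negative fold changes. Ndufa5, a matrix-arm subunit, was at 17.7, 18.3 and 17.8 CPM in wild-type and 17.5, 16.9 and 15.5 CPM in overexpressing libraries, a log2 fold change of -0.14. Ndufb4b had a log2 fold change of -0.86, on 2.87 ± 1.23 against 1.59 ± 0.458 CPM, and its groups overlapped. That is 22.3 to 70.4 counts a library, none of them whole, so this fold change rests on few reads. Ndufb4, another membrane-arm subunit, was at 11.2, 10.97 and 11.2 CPM against 14.8, 13.4 and 12.96 CPM (log2 fold change 0.28, adjusted p = 0.553), with no overlap. However, the Ndufb4 transcript and the row Ndufb4c, annotated as a processed pseudogene, are 100% identical over 390 bases in the GENCODE M21 transcripts. The Ndufb4c row was at 26.3 ± 1.95 and 26.2 ± 1.18 CPM in the groups, and its log2 fold change was -0.04. Reads of the shared stretch cannot be assigned to either row by sequence, so the split between them is uncertain.

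Complex II, or succinate dehydrogenase, is encoded entirely in the nucleus and also serves the tricarboxylic acid cycle. Its 4 subunits had a median log2 fold change of 0.05, and 3 were above 0. Sdha, the flavoprotein with the succinate site, was at 201.5, 198.0 and 210.6 CPM in wild-type and 207.1, 222.9 and 211.0 CPM in overexpressing libraries, which overlapped. Sdhb, the iron-sulphur subunit, was at 55.9, 50.96 and 56.2 CPM against 57.4, 61.3 and 63.5 CPM, without overlap but with OE1 near the wild-type values (log2 fold change 0.13, adjusted p = 0.682 in edgeR). Sdhd, a membrane anchor, overlapped at 56.9 ± 2.91 and 60.8 ± 1.72 CPM.

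Complex III had a nuclear median of 0.11 over 8 members, of which 6 were above 0 and 5 separated the groups by library-scaled CPM (3 on the TMM scale). Uqcrc1, a core protein of the matrix side, was at 79.0, 78.8 and 82.7 CPM in wild-type and 90.4, 92.9 and 99.5 CPM in overexpressing libraries. The groups did not overlap, with OE3 the highest library, and the fold was 1.15 (95% interval 1.02 to 1.29, adjusted p = 0.424 in edgeR). Uqcrfs1, the Rieske iron-sulphur protein that moves electrons to cytochrome c1, was at 55.4, 49.9 and 56.1 CPM against 56.2, 68.6 and 65.3 CPM. Here OE1 barely cleared WT3, and the fold was 1.15 (1.01 to 1.31, adjusted p = 0.504). Uqcrc2, the partner core protein, was at 103.8, 102.3 and 105.9 CPM against 110.9, 118.3 and 117.3 CPM (adjusted p = 0.659). The small subunits Uqcrb and Uqcr11 lay just below 0, at -0.03 and -0.04.

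Complex IV, cytochrome c oxidase, had a nuclear median of 0.07 over 18 members, 15 of them above 0. Ndufa4, long listed with complex I, and its paralog Ndufa4l2 were counted here. Cox5b, a subunit on the matrix side, was at 51.1, 52.5 and 50.5 CPM in wild-type and 56.8, 61.5 and 63.7 CPM in overexpressing libraries. The groups did not overlap, with a fold of 1.15 (95% interval 1.03 to 1.29, adjusted p = 0.402 in edgeR). Its structural neighbour Cox5a was at 40.7, 34.7 and 40.4 CPM against 40.9, 43.4 and 42.0 CPM, where OE1 nearly met WT1. Cox4i1, the general isoform of the ATP-sensing subunit, overlapped at 187.5 ± 4.96 and 198.4 ± 5.02 CPM. The wide fold changes of this complex belonged to isoforms restricted to other tissues, described below.

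Complex V makes ATP. Its 18 members had a median log2 fold change of 0.09, with 16 above 0 and 7 that separated the groups (5 on the TMM scale), and its summed level was the only nuclear sum that also separated them on the TMM scale, at 1991 ± 75.3 and 2155 ± 69.7 CPM. That separation was a near tie, with WT1 at 2078 and OE2 at 2081 CPM. Atp5f1b, the catalytic beta subunit, was at 433.5, 441.6 and 471.2 CPM in wild-type and 471.3, 535.9 and 518.1 CPM in overexpressing libraries. OE1 and WT3 were almost equal, and the fold was 1.11 (95% interval 0.977 to 1.25, adjusted p = 0.634 in edgeR). Atp5f1a, the alpha subunit, was at 385.0, 379.1 and 388.4 CPM against 402.8, 452.1 and 452.6 CPM (fold 1.11, 0.981 to 1.25, adjusted p = 0.620). Atp5po, the subunit of the peripheral stalk once called OSCP, was at 70.7, 63.7 and 69.3 CPM against 73.0, 79.97 and 76.3 CPM. A second row with the symbol Atp5po was at 0 in every library. Atp5if1, the inhibitor that blocks reverse ATP hydrolysis, was at 47.2 ± 0.657 and 48.9 ± 2.43 CPM, and its groups overlapped.

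Of the 3 genes for the proton-carrying c subunit, which yield the same mature protein, Atp5mc1 and Atp5mc3 each had a log2 fold change of 0.13. Atp5mc2 was at 1.83, 1.07 and 0.714 CPM in wild-type and 0.451, 0.867 and 1.09 CPM in overexpressing libraries. That is 9.16 to 34.7 counts a library, none of them whole, so its log2 fold change of -0.64 rests on few reads. Per kilobase of transcript, Atp5mc2 was the lowest of the 83 nuclear members with a length, at 2.06 ± 0.9747 CPM per kb in wild-type lungs. The highest was Cox4i1 at 248 ± 6.57 CPM per kb, followed by Atp5f1b at 234 ± 10.4 CPM per kb.

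Some nuclear genes carry the promoter motifs below, each present in a minority of the member promoters. These are shown because nuclear respiratory factor 1 (NRF1), ETS-family factors such as GABP, and YY1 are known to bind near many nuclear subunit genes. In RefSeq promoters (250 bases before to 50 after the start, GRCm38.p6), 68 of the 86 nuclear members had 73 windows. The NRF1 core GCGCATGC, searched on both strands, was in 10 of 73 windows (13.7%) and in 2.71% of all 32851 promoters. The ETS motif CCGGAAG was in 21.9% and 8.86%. The YY1 motif AAGATGGC was in 13.7% and 2.75%. The last contains an ATG and the windows run past the start, so a match can be a translation start. No motif is contained in another. The member promoters and all promoters were not matched for base composition. For each complex, the gene with the NRF1 letters and the smallest p is printed as 30 bases in the sense of the gene, with the match in capitals.
Ndufa8 (complex I), chr2:36049328-36049357 (-): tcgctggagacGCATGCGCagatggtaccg
Sdhb (complex II), chr4:140961206-140961235 (+): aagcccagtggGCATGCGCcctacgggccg
Uqcrc1 (complex III), chr9:108936667-108936696 (+): gactccgctctGCGCATGCgcagcgcggct
Cox6a1 (complex IV), chr5:115349102-115349131 (-): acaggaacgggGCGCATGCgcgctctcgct
Atp5mc2 (complex V), chr15:102671071-102671100 (-): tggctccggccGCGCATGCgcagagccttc
Genes with these letters did not share a fold change. Their log2 values were 0.16 for Ndufa8, 0.13 for Sdhb, 0.20 for Uqcrc1, 0.06 for Cox6a1 and -0.64 for Atp5mc2, and those of Ndufa11, Atp5me, Atp5mg, Uqcr11 and Ndufa6 were 0.14, 0.09, 0.07, -0.04 and -0.13. Nrf1, Gabpa and Yy1 are counted among the regulators in the lists below, without values of their own.

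The mitochondrial genome supplied 13 messenger RNAs, which together held 4.95%, 3.33% and 3.29% of the counts of WT1, WT2 and WT3. The shares in OE1, OE2 and OE3 were 3.83%, 3.47% and 3.24%. WT1 was thus the highest library, and the other 5 lay between 3.24% and 3.83% with the groups mixed. Without WT1, the median log2 fold change of the 13 genes turned from -0.16 to 0.09. The ratio of summed mitochondrial to summed nuclear levels, which no library scaling changes, was 8.85, 6.37 and 6.11 in wild-type libraries. It was 6.61, 5.91 and 5.39 in overexpressing libraries, and the groups overlapped. These shares and ratios leave out counts placed on the nuclear copies described below, and with those counts they would be higher in every library.

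**Figure D3:**
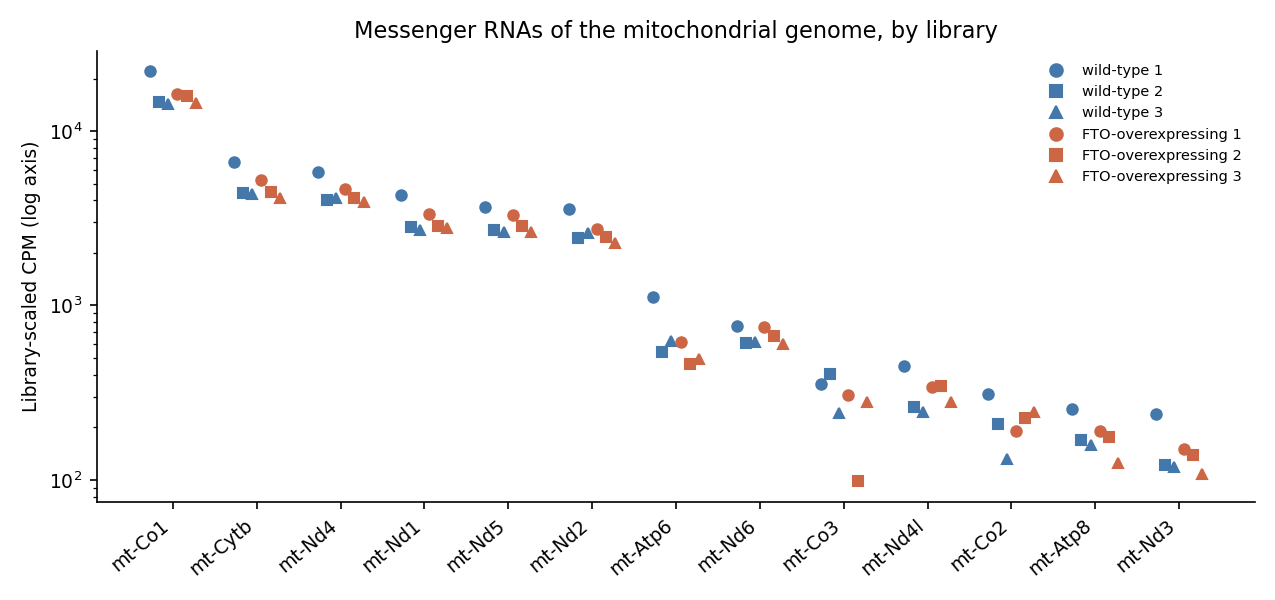
Level of each of the 13 messenger RNAs of the mitochondrial genome (vertical axis, library-scaled CPM, log scale) in the 6 libraries; each point is 1 library, and genes are ordered by their wild-type mean. WT1 is highest for all genes but mt-Co3, for which WT2 is highest at 402 CPM and OE2 stands low at 98.2 CPM.

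Complex I has 7 mitochondrial subunits, which form the proton-pumping membrane core, and all 13 mitochondrial genes overlapped between the groups. mt-Nd1 was at 4276, 2799 and 2704 CPM in wild-type and 3352, 2847 and 2796 CPM in overexpressing libraries. mt-Nd4 was at 5784, 3999 and 4112 CPM against 4662, 4127 and 3895 CPM, and mt-Nd2 was at 2873 ± 616 and 2494 ± 239 CPM. In these genes WT1 stood above every other library and OE1 came next. mt-Nd5 was at 2999 ± 573 and 2946 ± 342 CPM. mt-Nd6, the messenger RNA encoded on the other strand, was at 766.9, 610.7 and 614.8 CPM against 756.4, 671.9 and 598.2 CPM, a log2 fold change of -0.01.

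mt-Cytb, the cytochrome b of complex III, was at 6646, 4403 and 4343 CPM in wild-type and 5260, 4464 and 4105 CPM in overexpressing libraries (log2 fold change -0.19, adjusted p = 0.867 in edgeR). mt-Co1, which holds the haem and copper centre of complex IV, was at 22012, 14660 and 14364 CPM against 16366, 15788 and 14561 CPM (-0.16, adjusted p = 0.901). Both showed the high WT1 and both turned above 0 without it, to 0.06 and 0.09. For the ATP synthase, mt-Atp6, the proton-channel subunit a, was at 1122, 543.3 and 621.8 CPM against 613.2, 459.1 and 493.7 CPM. Its fold was 0.671 (95% interval 0.425 to 1.06, adjusted p = 0.605), and its log2 fold change of -0.58 was -0.17 without WT1. mt-Atp8, whose reading frame overlaps that of mt-Atp6, was at 195 ± 53.3 and 164 ± 34.4 CPM.

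The counts of several mitochondrial genes were shared with nuclear copies. A stretch of chromosome 1 carries a copy of part of the mitochondrial genome, annotated in GENCODE M21 as a row of unprocessed pseudogenes that the deposited table counts as genes of their own. Gm28661 matches mt-Co2, Gm28437 matches mt-Co3, Gm10925 matches mt-Atp6 and Gm10222 matches mt-Nd4l, each with 100% identity over nearly the whole gene. Gm28439 matches mt-Nd4 with 100% identity over 876 bases, 63.6% of the gene, but had 0 counts in every library. Gm28438 differs from mt-Nd3 at 1 base and Gm29216 from the last part of mt-Co1 at 1 base. The pairs are printed because reads from a stretch without a mismatch cannot be placed by sequence, while a read over a mismatched base, marked by capitals, can be. Bases are from the M21 transcripts (GRCm38.p6), counted from 1 at the 5′ end of each.
mt-Co3, chrM:8607-9390 (+), bases 1 to 51: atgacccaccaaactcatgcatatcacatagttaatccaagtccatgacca
Gm28437, chr1:24613189-24613971 (-), bases 1 to 51: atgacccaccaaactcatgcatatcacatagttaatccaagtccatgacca
mt-Nd3, chrM:9459-9806 (+), bases 1 to 51: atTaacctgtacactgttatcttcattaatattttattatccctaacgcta
Gm28438, chr1:24612775-24613119 (-), bases 1 to 51: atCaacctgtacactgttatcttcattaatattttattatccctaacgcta
mt-Co1, chrM:5328-6872 (+), bases 1063 to 1113: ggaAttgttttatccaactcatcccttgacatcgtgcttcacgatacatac
Gm29216, chr1:24615706-24616197 (-), bases 10 to 60: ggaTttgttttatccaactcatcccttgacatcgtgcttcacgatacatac
The substitutions, mitochondrial base first and numbered along the mitochondrial gene, are T3C for mt-Nd3 and A1066T for mt-Co1. The values of mt-Co1, mt-Co2, mt-Co3, mt-Atp6, mt-Nd3 and mt-Nd4l, and of no other mitochondrial messenger RNA, were not whole in all 6 libraries.

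For mt-Co2, mt-Co3, mt-Atp6 and mt-Nd3, most counts lay on the copies. Of the counts on mt-Co2 and its copies together, the copies held 95.1% to 97.4%. For mt-Co3 the share was 91.0% to 97.9%, for mt-Atp6 79.3% to 83.7%, and for mt-Nd3 71.0% to 78.8%. For mt-Nd4l the copy held 8.64% in WT1 and 17.8% to 27.1% in the others. The copies of mt-Co1 held at most 0.422%. Levels per kilobase changed accordingly. In wild-type lungs mt-Co1 was at 11011 ± 2804 CPM per kb and mt-Co2 at 317 ± 131 CPM per kb, and with the copies added mt-Co2 was at 8874 ± 2866 CPM per kb.

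For mt-Co3 the order of the libraries also changed when the copies were added. mt-Co3 alone was at 356, 402 and 241 CPM in wild-type and 308, 98.2 and 279 CPM in overexpressing libraries, with OE2 far below the rest. With Gm28437 it was at 7140, 4464 and 4347 against 5258, 4652 and 4254 CPM, and OE2 was the third highest. The log2 fold change of mt-Co3 moved from -0.56 to -0.20, and that of mt-Atp6 from -0.58 to -0.35. mt-Co2 moved from -0.02 to -0.18, mt-Nd3 from -0.30 to -0.45, and mt-Nd4l from -0.02 to 0.00. With copies added, 12 of 13 genes were below 0 (median -0.18), the summed share was 6.94%, 4.49% and 4.48% against 5.27%, 4.70% and 4.39% of the library, and again WT1 stood above the others. Without WT1 as well, 3 of 13 were below 0 and the median was 0.09. This sum was chosen after seeing the data.

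**Figure D4:**
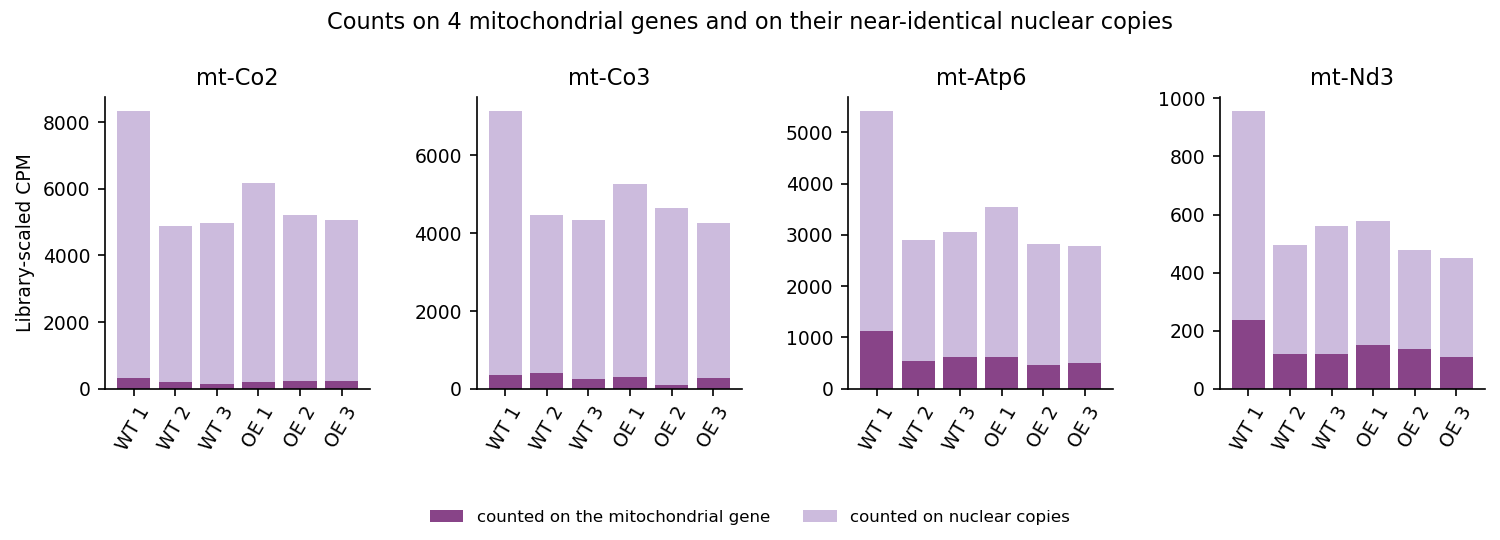
Counts on mt-Co2, mt-Co3, mt-Atp6 and mt-Nd3 (dark) stacked with those on their nuclear copies (light), in library-scaled CPM from 0, for the 3 wild-type (WT) and 3 overexpressing (OE) libraries. The light part makes up 71.0% to 97.9% of each bar, and the WT 1 bar is the tallest for all 4 genes.

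Other RNAs of the mitochondrial genome were the 2 ribosomal RNAs, which poly(A) selection captures in part. mt-Rnr1 was at 997, 697 and 801 CPM in wild-type and 580, 515 and 672 CPM in overexpressing libraries, without overlap. Its log2 fold change was -0.53 (adjusted p = 0.345 in edgeR). mt-Rnr2 was at 1771, 1396 and 1515 CPM against 1275, 1080 and 1278 CPM, also without overlap (-0.40, adjusted p = 0.439). Of all genes, 4.77% had all overexpressing libraries below all wild-type ones by library-scaled CPM. Both ribosomal RNAs had an unadjusted p under 0.05 in edgeR, as did 3.67% of all genes on the lower side, and neither passed the threshold. WT1 was the highest library for both, and no fit without it is given for them.

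Some subunits have isoforms restricted to particular tissues, and 6 of the 8 considered were tested. Cox6a2, Cox7a1 and Cox8b are the heart and skeletal muscle isoforms of complex IV. Cox6a2 was at 5.17, 5.21 and 11.2 CPM in wild-type and 5.27, 19.8 and 9.61 CPM in overexpressing libraries. Cox7a1 was at 0.950, 0.877 and 3.88 CPM against 1.33, 5.56 and 1.96 CPM, and Cox8b at 0.950, 1.08 and 1.39 CPM against 1.43, 4.60 and 1.54 CPM. OE2 was the highest library for all 3. Their log2 fold changes were 0.63, 0.58 and 1.08 (lowest adjusted p 0.548), and without OE2 they were 0.05, -0.20 and 0.38.

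The 17 cardiac muscle genes summed to 195, 97.95 and 823 CPM in wild-type and 266, 1858 and 440 CPM in overexpressing libraries, all 17 with counts. All 17 were above 0 (median log2 fold change 1.21, 0 called). The 6 libraries fell in the same order for Cox7a1 as for the cardiac sum, from OE2 through WT3, OE3, OE1 and WT1 to WT2. Cox6a2 had this order except that WT2 lay above WT1. Cox8b had another order, from OE2 through OE3, OE1, WT3 and WT2 to WT1. Brown and white fat genes (5 of 8 tested, all above 0, median 1.65, 0 called) were also highest in OE2, at 54.3 CPM against 4.17 to 11.6 CPM elsewhere. Skeletal muscle genes (6 of 10 tested, all above 0, median 2.06, 0 called) were highest in OE3, at 128 CPM against 19.9 to 46.9 CPM elsewhere, with Myog at 0 in every library. The part of such tissue in these isoforms was not tested.

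**Figure D5:**
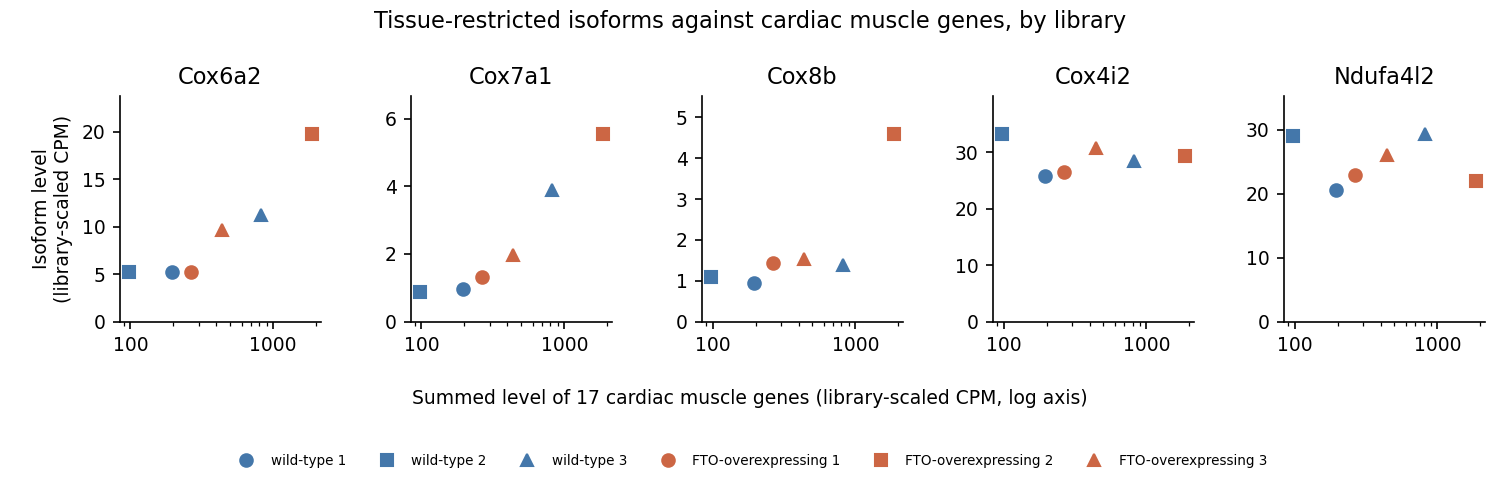
Level of 5 tissue-restricted isoforms (vertical axes, library-scaled CPM from 0) against the summed level of 17 cardiac muscle genes (horizontal axes, library-scaled CPM, log scale); each point is 1 library. Cox6a2, Cox7a1 and Cox8b are highest in OE2, where the cardiac sum is 1858 CPM, while Cox4i2 and Ndufa4l2 are not.

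Cox4i2 is the lung isoform of subunit IV and is found with Ndufa4l2 in pericytes and other contractile or oxygen-sensing cells. Cox4i2 was at 25.9, 33.3 and 28.4 CPM in wild-type and 26.5, 29.3 and 30.7 CPM in overexpressing libraries, and Ndufa4l2 at 20.6, 28.99 and 29.4 against 22.9, 21.9 and 26.1 CPM. Both overlapped, with log2 fold changes of -0.05 and -0.18. Of 10 pericyte markers, 2 were above 0 and the median was -0.22 (0 called). Cox6b2, the testis isoform, was at 7.39 ± 1.35 and 6.54 ± 1.29 CPM. The remaining isoforms, Cox7b2 and Cox8c, had no counts in any library.

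The rest of the pathway was described with lists of genes around the subunits, and except where stated 0 genes of each passed the threshold. Of 49 assembly factors tested, which build the complexes, 29 were above 0, with a median log2 fold change of 0.02 and 0 at an unadjusted p under 0.05. The factors with the smallest p-values had log2 fold changes of 0.18 (Tmem186, which takes part in building complex I) and 0.22 (Foxred1, another complex I factor). Of 22 mobile carriers, ubiquinone enzymes and other subunits, 13 were above 0 (median 0.05). Cycs, cytochrome c itself, had a log2 fold change of 0.15 and Coq10b, a ubiquinone-binding protein, -0.35. Among 34 genes that copy, transcribe or translate the mitochondrial genome, 20 were above 0 (median 0.05), with Mterf1a at 0.39 and Fastkd5, an RNA-processing factor, at -0.32. Among 19 regulators of mitochondrial biogenesis, including Nrf1, Gabpa and Yy1, 11 were above 0 (median 0.03). Those with the smallest p-values had log2 fold changes of -0.15 (Ppard) and -0.13 (Prkaa1, a catalytic subunit of AMP-activated kinase).

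Enzymes that feed the chain had medians close to that of the nuclear subunits. Of 18 tricarboxylic acid cycle and pyruvate dehydrogenase genes, 15 were above 0 (median log2 fold change 0.09, 2 at an unadjusted p under 0.05, both higher). Mdh2, the mitochondrial malate dehydrogenase, was at 95.6, 95.05 and 102.1 CPM in wild-type and 105.4, 124.3 and 115.4 CPM in overexpressing libraries. Its groups did not overlap (log2 fold change 0.20, adjusted p = 0.410 in edgeR). Idh3a had a value of 0.22. Of 12 mitochondrial carriers and channels, 10 were above 0 (median 0.08), with Slc25a12 at 0.18 and Slc25a10 at -0.13. Of 20 glycolysis genes 14 were above 0 (median 0.05), and 5 of them had an unadjusted p under 0.05, all higher, led by Pfkp (0.31) and Hk1 (0.24). Of 18 hypoxia genes 5 were above 0 (median -0.11), with Ddit4 at -0.37 and Car9 at 0.92.

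The machinery that makes and imports mitochondrial proteins showed a similar spread. Of 75 mitochondrial ribosomal protein genes, 55 were above 0 (median log2 fold change 0.05, 3 at an unadjusted p under 0.05, all higher), with Mrpl19 at 0.35 and Mrps16 at 0.37. Of 23 import genes of the outer and inner membrane, 14 were above 0 (median 0.03), with Timm29 at -0.22 and Tomm22 at 0.17. Cytosolic ribosomal protein genes, which share with the nuclear subunits their short and abundant messenger RNAs, were above 0 for 67 of 79, with a median of 0.09 and 0 at an unadjusted p under 0.05. Their summed level was 25807, 21763 and 21042 CPM in wild-type and 26299, 21500 and 27043 CPM in overexpressing libraries, which overlapped. Ciliated cell markers (7 of 10 above 0, median 0.06) and haemoglobin genes (4 of 4, median 0.21, highest in OE1 and lowest in OE3) are given for the makeup of the samples.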

How the data were processed

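The deposited unit is the expected count, an estimate of reads for each gene, and 9.66% to 10.3% of the values of a library were not whole (tolerance 0.001). Libraries for messenger RNA were prepared with a stranded kit after TRIzol extraction, per the labels' protocols. The submitters' processing notes name fastp, HISAT2 and StringTie. Not given in the sources used here were the genome build, annotation and counting program. How reads that match several places were shared out between genes is not given either, which bears on the mitochondrial genes and on some nuclear members. Of the 86 nuclear members tested, 29 had values that were not whole. In 10 of these, among them Ndufs1, Uqcrc2 and Atp5if1, this held in all 6 libraries. 525 rows without a symbol were kept in library totals.

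Counts were rounded and fitted in R 4.3.3 with edgeR 4.0.16 (filterByExpr, TMM, quasi-likelihood F-test, group as the only term), with adjustment over 16989 genes and a threshold of 0.05. Intervals are 95% intervals of the fit. Levels are library-scaled CPM of the unrounded counts. The fit was tested on simulated data with 2-fold and 4-fold changes, of which it called 84 and 100 of 100. Smaller changes, the size of most member fold changes, were not simulated. Alternatives were other scalings (RLE, upper quartile, library totals only), no filter, a mean of at least 50 counts, a replicate block, each library left out, DESeq2 1.42.0, limma-voom (limma 3.58.1), mitochondrial and haemoglobin rows left out, Ndufa4 and Ndufa4l2 counted with complex I and, added later, mitochondrial genes summed with nuclear copies. Copies were found by BLAST of the members against GENCODE M21 transcripts, matched by Ensembl identifier, and lengths are those of the principal transcripts. No 2 libraries agreed within sampling noise (chi-square over degrees of freedom at least 20.7).

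The members and lists were chosen with earlier results of these data known. Genes were named by rule: all mitochondrial members, the 3 of each nuclear complex with the smallest p, core subunits, tissue-restricted isoforms, and the 2 genes of smallest p of each other list whose values are given by gene. Ndufa5, Ndufb4b, Ndufb4c, Uqcrb, Uqcr11, the c subunit genes and the other genes with the NRF1 letters were named after their values were seen. The values of 1 core subunit are not reported here.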

Additional observations from a re-analysis of the deposited data

How the results depend on the processing

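The count of 0 members called and the direction of the median over nuclear members, and over the nuclear members of each complex, held in every alternative run, as did the direction of the mitochondrial median except without WT1. Of 38 named members, 26 kept their direction throughout. The count over all genes, 16, was 287 with no filter on low counts, 2 with the replicate block, 424 in DESeq2, 5 in limma-voom, and 1 to 49 with a library left out (1 without WT2, WT3 or OE2, 6 without OE3 and 49 without OE1). The cause was not tested.

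The median of complex III was 0.14 with library totals only. Leaving out each library gave medians of 0.041 to 0.14 for nuclear members, 0.048 to 0.13 for complex I, 0.073 to 0.13 for complex III, 0.018 to 0.15 for complex IV, 0.054 to 0.15 for complex V and -0.29 to 0.086 for mitochondrial members. Some mitochondrial genes turned in sign outside these settings. mt-Co2 was at 0.025 with library totals only, 0.069 with the replicate block and 0.071 in limma-voom. mt-Nd6 was at 0.025 with library totals only. mt-Nd4l was at 0.018 with library totals only, 0.035 with the replicate block, 0.036 in limma-voom and 0.0021 with its copies. With a library left out, values ranged from -0.28 to 0.11 for mt-Nd1, -0.28 to 0.086 for mt-Co1, -0.29 to 0.35 for mt-Co2, -0.49 to 0.13 for mt-Nd3, -0.27 to 0.047 for mt-Nd4, -0.19 to 0.13 for mt-Nd5, -0.13 to 0.13 for mt-Nd6, -0.33 to 0.063 for mt-Cytb and -0.19 to 0.33 for mt-Nd4l. For nuclear genes they ranged from -0.037 to 0.088 for Atp5if1, -0.12 to 0.061 for Cox4i2 and -0.20 to 1.6 for Cox7a1.

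The shared replicate numbers did not pair the libraries as a whole. Deviations from the group means correlated across genes at 0.11 for number 1, -0.31 for number 2 and -0.31 for number 3, and WT3 correlated best with OE2 (0.43). With the replicate block as a term the members still gave 0 calls.

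With 3 libraries a group, the 95% interval of a nuclear member near 50 CPM spans folds such as 1.02 to 1.28 (Ndufa9), so differences of the size of the nuclear median are not resolved for single genes. Mitochondrial genes had wider intervals, such as 0.611 to 1.31 for mt-Co1.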

Other observations

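Nuclear subunits were also described by transcript length. Split at 755 bases, the median length of the 83 nuclear members with a length, the 41 longer members had a median log2 fold change of 0.10, with 37 above 0 and 5 at an unadjusted p under 0.05. The 42 members at or below that length had a median of 0.06, with 33 above 0 and 0 at an unadjusted p under 0.05. Over all genes with a length, the longer and shorter sides had medians of 0.0036 and 0.0063, with 1451 of 14238 and 46 of 617 genes at such a p. The members' 5 of 41 is near the share of all longer genes. The longer sides were not alike in length, with a median of 1170.5 bases for the members and 2964.5 for all genes. The split was made after seeing the data and the difference between the sides was not tested.

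The 5 members were not drawn from a single complex. Ndufa10 and Ndufa9 belong to complex I, Uqcrc1 and Uqcrfs1 to complex III and Cox5b to complex IV. Complexes II and V had 0 members at an unadjusted p under 0.05.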
